A study of Mus musculus with 38 samples.

Results

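The genes described here are 33 genes with known roles in the germline and in meiosis, followed through RNA sequencing of mouse embryonic stem (ES) cells. They were taken from 42 gene symbols, all of which are in the deposited table of 55385 genes, as those with counts above 0. All 33 passed the filter on low counts in each fit. The other 9 (Tex14, Tdrd5, Tdrd12, Tdrkh, Piwil2, Mov10l1, Dmc1, Mei4 and Nanos3) were listed at 0 in all 38 libraries. Each of these 9 overlaps another annotated gene on the same strand, which 0 of the 33 do, and how reads in such overlaps were counted is not stated, so the 9 are not described further.

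The study treated ES cells with BRM014, an inhibitor of BRG1 and BRM, the ATPases that drive SWI/SNF chromatin remodelling complexes. All groups are cells of 129S6/SvEvTac background kept on gelatin with serum and leukemia inhibitory factor, and each group within a batch has 2 libraries. In the first batch (26 libraries, 13 groups), wild-type cells received the solvent DMSO for 1 h or 24 h, BRM014 at 10 uM for 30 min, 1 h, 3 h, 6 h or 24 h, or a compound labelled as the inactive analog at 10 uM for 1 h or 24 h. Its 4 washout groups had BRM014 for 1 h followed by 30 min or 1 h without it, or BRM014 for 24 h followed by 6 h or 24 h without it. In the second batch (12 libraries, 6 groups), wild-type cells and lines labelled Ino80ko and Snf2hko received DMSO or 10 uM BRM014 for 24 h. Ino80 and SNF2H (gene Smarca5) are the ATPases of other remodelling complexes. The labels do not say how the lines were made or how many clones they represent, state no BRM014 dose for the washouts, and include neither a vehicle of 30 min, 3 h or 6 h nor a washed vehicle. Replicates are called biological, but their cultures and days are not named, so a p-value here describes only how these libraries vary, which may be technical.

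Germ cells transmit the genome and pass through meiosis, in which homologous chromosomes are paired, recombined and held together. A meiosis-specific cohesin axis (SMC1B, STAG3, REC8), HORMA-domain proteins and the synaptonemal complex organise the chromosomes, while Piwi proteins with Tudor-domain partners use small piRNAs to silence transposons in a cytoplasmic structure called nuage. ES cells are not germ cells, and many of these genes are held down there by DNA methylation and by a variant Polycomb complex whose subunits MGA and MAX recognise the E-box CACGTG and whose E2F-family subunit recognises TCCCGC.

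Libraries held 19349695 to 23053021 counts in the first batch and 21948010 to 44453556 counts in the second, with 14708 to 16778 genes detected. The 33 genes together took 0.0454% to 0.111% of the counts. The summed level of 10 ES cell markers was 5031 to 7537 CPM (counts scaled by TMM to a common library total), with no marker at 0, while 6 spermatid markers summed to at most 0.182 CPM. Ino80 was at 144 to 202 CPM in wild-type libraries, at 119 to 139 CPM in the line labelled Ino80ko and at 117 to 134 CPM in the line labelled Snf2hko. Smarca5 and Smarca4 were listed at 0 in all libraries, so the Snf2hko label could not be checked by its targeted gene, and the level of Ino80, which did not tell the lines apart, does not check the Ino80ko label either.

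In wild-type cells after 24 h of DMSO, the 33 genes spanned a wide range of levels. Compared per length, as CPM per kilobase of exon over the 4 libraries of both batches, Tex19.1, a repressor of transposons made in both ES cells and germ cells, was the highest at 45.0 ± 1.12 (SD, n = 4). Syce1, a central element protein of the synaptonemal complex, followed at 37.7 ± 1.04, and Fmr1nb, an X-linked gene known from testis, at 33.7 ± 2.49. Ddx4, the RNA helicase VASA, stood at 21.1 ± 3.27 and Mael, the nuage protein Maelstrom, at 12.3 ± 1.04, which are percentiles 87.7 and 82.1 among all genes detected. At the low end were Tdrd6 at 0.0504 ± 0.0358, Mei1 at 0.152 ± 0.0206 and Asz1 at 0.154 ± 0.0640. Neighbours in this order such as Mael and Stk31 (11 ± 1.85), or Mei1 and Asz1, differed by less than their spread.

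The promoters of these genes were searched for the E-box and for TCCCGC, since many of the genes moved together. RefSeq (GRCm38.p6) gave the 250 bases upstream of the start for 30 of the 33 genes, leaving Tex11, Tex15 and Tdrd6. CACGTG was present in 12 of the 30 windows (40%), against 6.05% of 27025 genes and 8.40% of the 9023 tested genes with a window. TCCCGC on either strand was present in 11 (36.7%), against 16.9% and 29.5%, and both were present in 5 (16.7%), against 1.47% and 2.75%. A match of one motif can share its end base with a match of the other, and these shares are descriptions with no test. The median CpG observed over expected was 0.646, against 0.378 and 0.695. The windows of 6 of the genes called in both batches at 24 h are shown from 5′ to 3′ on the gene's strand, with both motifs in capitals (GCGGGA is TCCCGC read on the other strand).
Mael, chr1:166238745-166238994, minus strand: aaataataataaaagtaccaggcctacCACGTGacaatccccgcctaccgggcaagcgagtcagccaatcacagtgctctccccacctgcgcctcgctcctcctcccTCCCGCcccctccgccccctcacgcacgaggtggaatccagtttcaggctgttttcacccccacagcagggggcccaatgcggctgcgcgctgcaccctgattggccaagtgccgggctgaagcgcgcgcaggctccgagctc
Ddx4, chr13:112652311-112652560, minus strand: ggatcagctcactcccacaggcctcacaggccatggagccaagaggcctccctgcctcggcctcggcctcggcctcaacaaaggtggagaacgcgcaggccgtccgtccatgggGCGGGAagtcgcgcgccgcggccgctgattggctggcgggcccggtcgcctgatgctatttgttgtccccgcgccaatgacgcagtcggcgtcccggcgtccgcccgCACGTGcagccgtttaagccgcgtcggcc
Hormad1, chr3:95559427-95559676, plus strand: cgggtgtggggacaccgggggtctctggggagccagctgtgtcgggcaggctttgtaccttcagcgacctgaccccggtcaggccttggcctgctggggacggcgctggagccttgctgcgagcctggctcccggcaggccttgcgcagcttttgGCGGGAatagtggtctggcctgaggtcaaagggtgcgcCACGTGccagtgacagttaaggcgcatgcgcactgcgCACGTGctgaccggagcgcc
Taf7l, chrX:134476491-134476740, minus strand: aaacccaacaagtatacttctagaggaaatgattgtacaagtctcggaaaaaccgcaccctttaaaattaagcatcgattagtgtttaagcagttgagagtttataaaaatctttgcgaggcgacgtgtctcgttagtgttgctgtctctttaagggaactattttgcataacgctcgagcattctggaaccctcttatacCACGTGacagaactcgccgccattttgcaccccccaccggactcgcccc
Tex19.1, chr11:121145893-121146142, plus strand: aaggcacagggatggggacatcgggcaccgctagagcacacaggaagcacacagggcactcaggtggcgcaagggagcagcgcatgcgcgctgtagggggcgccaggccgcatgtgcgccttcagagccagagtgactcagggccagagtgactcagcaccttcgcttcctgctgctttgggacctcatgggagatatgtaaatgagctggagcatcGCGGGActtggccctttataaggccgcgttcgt
Piwil4, chr9:14740673-14740922, minus strand: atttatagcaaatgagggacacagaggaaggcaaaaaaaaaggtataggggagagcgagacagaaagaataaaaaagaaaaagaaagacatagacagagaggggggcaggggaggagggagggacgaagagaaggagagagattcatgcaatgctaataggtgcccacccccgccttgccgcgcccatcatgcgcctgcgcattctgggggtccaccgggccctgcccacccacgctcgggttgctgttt
Mael and Ddx4 carry 1 match to each motif, Hormad1 carries 2 of the E-box and 1 of TCCCGC, and Taf7l carries 1 E-box. These 4 genes were higher after 24 h of BRM014. Smc1b, Tdrd7, Syce2, Sycp2, Dazl and Fmr1nb, whose windows are not shown, were also higher in both batches and carry no E-box. Tex19.1 carries TCCCGC alone and Piwil4 neither, and Tex19.1 and Piwil4 were lower. Over all 30 windows, the E-box was in 7 of 13 genes called higher in both batches, 0 of 5 called lower in both and 5 of the other 12. TCCCGC was in 5, 2 and 4 of them.

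After 24 h of BRM014, most of the genes that moved in wild-type cells were higher, led by Mael, Taf7l, Smc1b, Tdrd7 and Stk31, while Piwil4, Rec8, Tex19.1, Hormad2 and Syce1 were lower. These directions are against DMSO of 24 h, and that of Smc1b turns against DMSO of 1 h (-0.30 ± 0.10 in the first batch, adjusted p = 0.0132). In both batches together (8 libraries, batch as a term), 17 of 33 genes were higher and 5 lower, against 24.8% of 11787 genes tested in each direction. The median log2 fold change was 0.41, against 0.00 for all genes. In the first batch alone it was 0.43 against DMSO of 24 h, 0.04 against DMSO of 1 h and 0.09 against the inactive analog. Within the first batch 14 were higher and 6 lower (22.6% and 23.2% of 12517 genes), and within the second 15 and 5 (20.6% and 21.7% of 13130 genes). Of the 14 genes higher in the first batch, 7 were also higher against DMSO of 1 h. Of the 33 genes, 13 were higher in both batches, 5 lower in both and 0 opposite, and 26 had the same sign. For such joint counts, over batches or over vehicles, the share of all genes was not counted, so they are descriptions only. In bulk RNA, fewer cells of a type and less RNA per cell cannot be told apart. A call means an adjusted p under 0.05 in edgeR's quasi-likelihood test with Benjamini-Hochberg adjustment over all genes tested, and values after ± are standard errors of log2 fold changes. Of the 22 calls in both batches together, 20 held without each library in turn, and Meioc and Slc25a31 did not.

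Among genes of the piRNA pathway and nuage, 4 of 11 rose and 2 fell in both batches together (24.8% of all genes in each direction). The median log2 fold change of these 11 genes was -0.01, so the group as a whole did not rise. Mael was at 21.6 and 23.6 CPM with DMSO and 67.8 and 68.0 with BRM014 in the first batch, and at 20.9 and 19.3 against 59.2 and 62.6 in the second. The groups lay far apart in both batches, and Mael rose by 1.60 ± 0.07 (adjusted p = 2.75e-11). Ddx4 was at 64.6 and 76.6 CPM with DMSO and 112 and 119 with BRM014 in the first batch, and at 53.2 and 60.3 against 100 and 101 in the second. These values did not overlap within or across batches (0.77 ± 0.07, adjusted p = 1.76e-07). Stk31, a Tudor-domain protein of germ cells, was at 33.6 and 44.5 against 76.6 and 70.5 CPM, then at 30.9 and 33.8 against 58.7 and 60.8 (0.90 ± 0.08, adjusted p = 1.55e-07). Its treated libraries were all above its vehicle libraries. Tdrd7, a Tudor-domain scaffold, was at 3.54 and 5.50 against 8.74 and 6.75 CPM, then at 3.68 and 3.25 against 7.47 and 7.13 (0.94 ± 0.16, adjusted p = 9.76e-05). Its first-batch call was lost without replicate 1 of the vehicle (0.49, adjusted p = 0.0519).

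The genes of this group that fell were Piwil4 and Tex19.1. Piwil4, which encodes MIWI2, the nuclear Piwi protein of fetal germ cells, was at 15.8 and 19.19 CPM with DMSO and 5.30 and 3.47 with BRM014, then at 13.9 and 13.1 against 3.91 and 3.49. It fell by 1.92 ± 0.13 on the log2 scale (adjusted p = 5.80e-09). Tex19.1 was at 84.3 and 85.2 CPM against 43.8 and 42.9, then at 86.0 and 81.2 against 51.6 and 52.3. The 4 vehicle libraries lay within a narrow band well above the treated ones, and the gene fell by 0.82 ± 0.07 (adjusted p = 8.41e-08). Piwil4 has an annotated antisense neighbour that shares exon sequence, and the strand setting of the counting is not given in the sources used here.

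Of the 12 genes of the chromosome axis and synaptonemal complex, 7 rose and 3 fell (24.8% of all genes in each direction). Smc1b, the cohesin subunit of meiosis, was at 17.1 and 19.0 CPM with DMSO and 32.0 and 33.0 with BRM014, then at 11.8 and 13.1 against 27.7 and 31.2 (1.05 ± 0.10, adjusted p = 2.59e-07). Sycp1, the transverse filament of the complex, was at 17.7 and 18.5 against 33.0 and 34.4 CPM, then at 17.2 and 17.1 against 24.9 and 28.0 (0.76 ± 0.09, adjusted p = 2.35e-06). In both genes every treated library was above every library of DMSO of 24 h. Against DMSO of 1 h, in the first batch, Smc1b was lower after 24 h of BRM014 (-0.30 ± 0.10). Sycp1, at 32.5 and 31.3 CPM in that vehicle, was not called (0.08 ± 0.10). Stag3, a further cohesin subunit, was at 93.4 and 79.9 against 135 and 131 CPM, then at 77.5 and 88.7 against 102 and 125 (0.54 ± 0.08). Syce2, a central element protein, was at 51.8 and 46.2 against 78.2 and 73.1 CPM, then at 65.8 and 66.5 against 92.6 and 87.7 (0.54 ± 0.07). Both were higher with BRM014 within each batch, with no overlap.

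Hormad1, which marks unpaired axes, was at 17.7 and 21.7 against 25.5 and 26.3 CPM, then at 17.6 and 17.6 against 28.3 and 26.6 (0.53 ± 0.09). Sycp2, of the lateral elements, was at 6.75 and 4.93 against 8.28 and 9.10 CPM, then at 4.42 and 4.98 against 6.23 and 6.81 (0.52 ± 0.13). Both rises were called with either batch, but Hormad1 in the first batch and Sycp2 in both were lost when single libraries were left out. Without replicate 1 of DMSO, Hormad1 had 0.25 (adjusted p = 0.147) in the first batch, and without replicate 3, Sycp2 had 0.38 (adjusted p = 0.140) in the second.

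The falls in this group concerned Rec8, Syce1 and Hormad2. Rec8, the meiotic kleisin, was at 25.3 and 21.0 CPM with DMSO and 11.3 and 14.2 with BRM014, then at 21.5 and 18.3 against 9.76 and 12.3 (-0.86 ± 0.11, adjusted p = 9.66e-06). The products of Smc1b and Stag3 join it in one cohesin complex. Rec8 was also lower against DMSO of 1 h (-0.64 ± 0.12), as was Smc1b, while Stag3 was at -0.04. Syce1 was at 54.8 and 54.3 against 41.6 and 35.5 CPM, then at 57.3 and 54.0 against 36.6 and 37.4 (-0.54 ± 0.07). Hormad2 was at 10.5 and 11.6 against 6.87 and 7.31 CPM, then at 9.25 and 10.4 against 6.72 and 7.22 (-0.56 ± 0.11). None of these 3 genes overlapped between treatments within a batch, though Hormad2 in the second batch had an adjusted p = 0.136 without replicate 3 of BRM014.

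Of the 6 germ cell regulators and other germ cell genes, 5 rose and 0 fell (24.8% of all genes in each direction). Taf7l, an X-linked germ cell paralog of a TFIID subunit, was at 11.6 and 9.59 CPM with DMSO and 23.9 and 24.3 with BRM014, then at 4.95 and 5.53 against 15.6 and 14.5 (1.36 ± 0.11, adjusted p = 4.12e-08). Treated libraries were above vehicle libraries within each batch, while the level of the vehicle differed between batches, which were normalized separately. Dazl, an RNA-binding protein needed for germ cell development, was at 23.2 and 26.6 against 34.1 and 32.7 CPM, then at 18.2 and 26.9 against 43.1 and 34.3 (0.62 ± 0.13, adjusted p = 0.00122). Fmr1nb was at 33.3 and 33.7 against 40.3 and 37.7 CPM, then at 30.9 and 28.7 against 37.7 and 37.3 (0.28 ± 0.07). This rise was small, and within either batch it lost its call without single libraries (adjusted p up to 0.198). Of the 4 recombination genes measured (Prdm9, Mei1, Tex11, Meioc), 1 rose in both batches together (24.8% of all genes), Meioc by 0.21 ± 0.07.

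**Figure D1:**
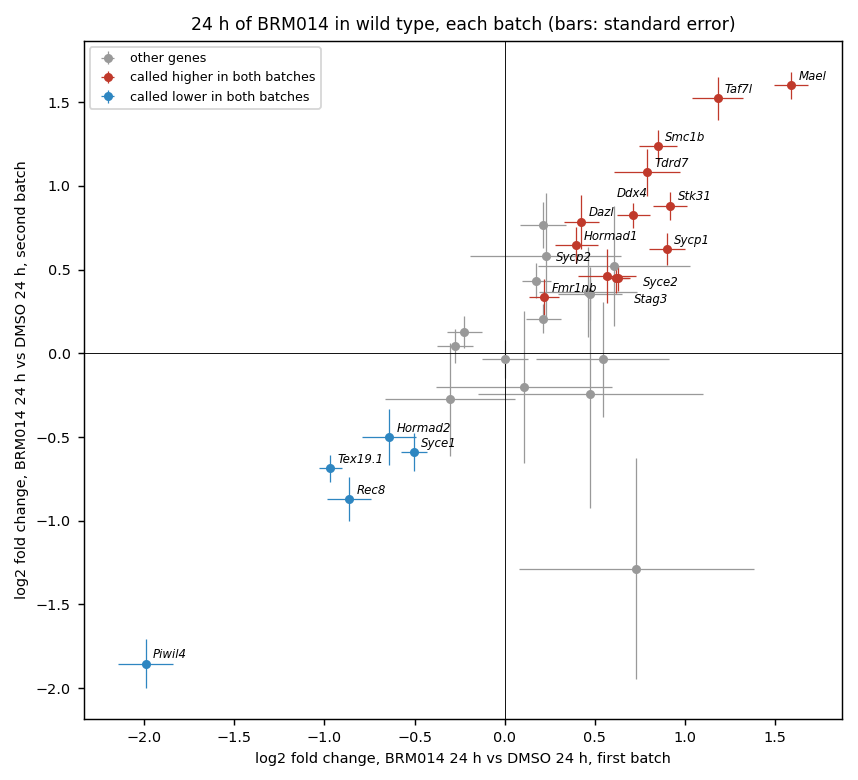
Log2 fold change of each of the 33 genes after 24 h of BRM014 in wild-type cells, first batch on the horizontal axis and second batch on the vertical axis; bars are standard errors. The 13 red genes were called higher and the 5 blue genes lower in both batches, with Mael at 1.59 and 1.60 and Piwil4 at -1.99 and -1.85.

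A difference of the effect between the batches was called by edgeR's test in 0 of the 33 genes (3.46% of all genes tested, either direction). An unadjusted p under 0.05 was found for 5 genes, and DESeq2 called 0. Without replicate 1 of DMSO, 1 gene was called. A summed level of 6 markers of primordial germ cells moved the other way from most of the germline genes. It was 167 to 177 CPM with DMSO and 105 to 109 with BRM014 in the first batch, and 201 to 209 against 113 to 124 in the second. Of the 6 markers Nanos3 was at 0. Kit and Tfap2c reached the highest levels over all libraries, up to 99.5 and 82.3 CPM. Prdm1 reached at most 19.6 and Dppa3 at most 12.7 CPM, so the sum can mostly follow Kit and Tfap2c. Of the 5 markers tested, 3 were called lower and 1 higher with BRM014 in each batch. Primitive endoderm markers summed to 80.5 to 90.6 CPM against 111 to 115, then 49.7 to 51.9 against 79.8 to 96.8, with Pdgfra at 0. The part of these cell types in the changes was not tested.

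At 30 min and 1 h no gene passed the test, at 3 h changes went both ways, and at 6 h more genes were lower than higher. At 30 min 0 of 33 genes were called against DMSO of 1 h (0% of all genes), and at 1 h 0 (0.599%). At 3 h, against the mean of both vehicles, 2 genes were higher and 5 lower (15.5% and 15.7% of all genes). At 6 h 3 were higher and 13 lower (24.9% and 23.5%), with a median of -0.20. These groups share the vehicles with each other and with the 24 h comparison. At 30 min and at 1 h, 2 genes had an unadjusted p under 0.05, and DESeq2 called 0 as well.

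The genes lower at 3 h were Piwil4, Meioc, Tex15, Tex11 and Hormad2. Piwil4 was at 13.9 and 13.8 CPM with DMSO of 1 h, 10.7 and 11.4 at 3 h and 7.25 and 7.14 at 6 h. It was lower at 3 h (-0.49 ± 0.12, adjusted p = 0.00185) and at 6 h (-1.11 ± 0.13, adjusted p = 2.28e-08). Meioc, which extends meiotic prophase, was at 37.5 and 38.1 CPM with DMSO of 1 h, 29.9 and 33.0 at 3 h and 27.1 and 20.9 at 6 h (-0.43 ± 0.09, then -0.82 ± 0.09). Tex15, a partner of MIWI2 in silencing transposons, was at 63.9 and 64.2 CPM, then 50.7 and 57.9, then 38.3 and 35.8 (-0.33 ± 0.08, then -0.88 ± 0.09). In Piwil4, Meioc and Tex15 both libraries of 6 h were below all libraries of both vehicles.

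At 3 h Tex11, an X-linked crossover gene, and Hormad2 were also lower (-0.26 ± 0.09 and -0.33 ± 0.12). Sycp1 and Smc1b were higher at 3 h, by 0.46 ± 0.08 and 0.25 ± 0.09, against a mean of vehicles that themselves differ. Against DMSO of 1 h alone, Smc1b at 3 h had -0.32, and only 2 of the 33 genes were called, 0 higher and 2 lower. Against DMSO of 24 h alone, 12 were called, 7 higher and 5 lower. The shares of all genes called against either vehicle alone were not counted, so this change with the vehicle may not be particular to these genes. Without replicate 1 of DMSO 1 h, or without replicate 1 of BRM014 3 h, 4 genes were called, 1 higher and 3 lower. Of the 7 calls at 3 h, 3 held without each library, and Tex11, Hormad2, Smc1b and Tex15 did not.

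At 6 h the genes lower with the smallest adjusted p were Tex19.1 (-0.89 ± 0.06, adjusted p = 1.45e-13), Tex15, Meioc, Piwil4, Hormad2 (-1.14 ± 0.14) and Sohlh2 (-0.60 ± 0.07). Tex19.1 was at 50.5 and 55.8 CPM, against 115 and 115 in DMSO of 1 h and 84.3 and 85.2 in DMSO of 24 h, so that it lay below both. Sohlh2, a helix-loop-helix factor of early germ cells, was at 24.1 and 22.9 CPM against 35.4 and 33.9, and 38.5 and 34.9. The 3 higher genes were Tdrd7 (0.73 ± 0.16), Prdm9, the methyltransferase that places recombination hotspots (0.63 ± 0.22), and Sycp1 (0.22 ± 0.08). Sycp1, at 29.4 and 26.5 CPM, lay between DMSO of 1 h (32.5 and 31.3) and DMSO of 24 h (17.7 and 18.5). Smc1b, called lower, also lay between them, at 21.8 and 22.0 CPM against 38.3 and 41.5, and 17.1 and 19.0. The direction of both genes at 6 h thus depends on the vehicle. Of the 16 calls, 10 held without each library, and those of Prdm9, Sycp1, Sycp2, Taf7l, Smc1b and Tex101 did not.

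Between 6 h and 24 h of BRM014, 19 genes rose and 4 fell (19.5% and 22.1% of all genes). Mael was at 24 and 25.2 CPM at 6 h and 67.8 and 68.0 at 24 h, a rise of 1.46 ± 0.09 (adjusted p = 2.96e-13). The next were Meioc (1.20 ± 0.10), Stk31 (1.01 ± 0.09), Taf7l (1.43 ± 0.14), Sohlh2 (0.82 ± 0.08) and Hormad1 (0.93 ± 0.12). Meioc and Sohlh2, which were below both vehicles at 6 h, were at 55.8 and 54.6, and at 42.5 and 40.3 CPM at 24 h, above all 4 vehicle libraries. The 4 falls were Syce1 (-0.67 ± 0.07), Tex19.1 (-0.29 ± 0.06), Rec8 (-0.56 ± 0.12) and Piwil4 (-0.71 ± 0.17). Of these 23 calls, 18 held without each library, and those of Hormad2, Tex101, Tex11, Sycp1 and Piwil4 did not.

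**Figure D2:**
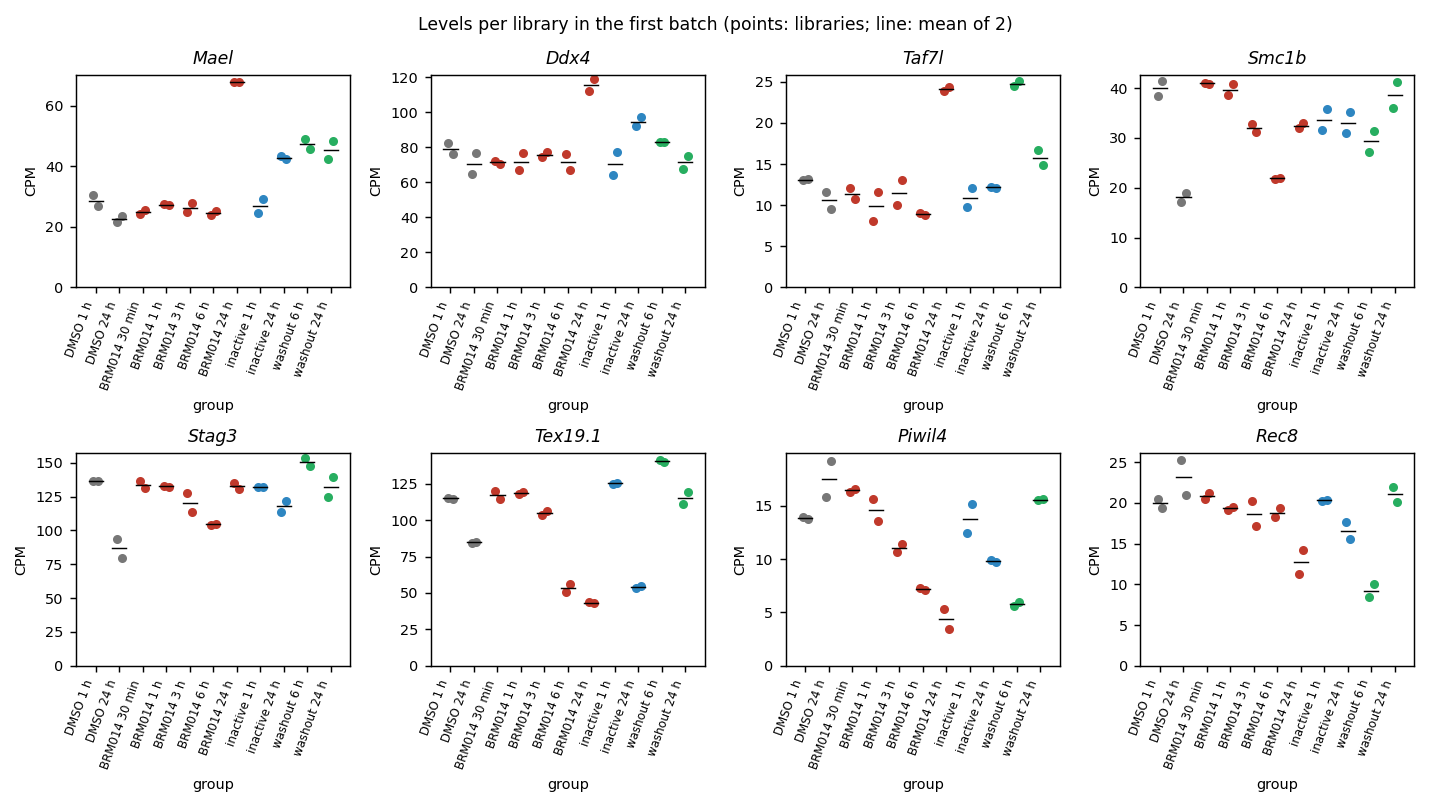
CPM of 8 genes in each library of the first batch (points) with the mean of the 2 libraries of a group (line); the horizontal axis lists vehicle, BRM014, inactive analog and washout groups. Mael stays between 21.6 and 30.5 CPM in all vehicle libraries and reaches 67.8 and 68.0 at 24 h of BRM014, whereas Smc1b is at 38.3 and 41.5 CPM in the vehicle of 1 h and 17.1 and 19.0 in that of 24 h.

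The vehicle itself changed between 1 h and 24 h, mostly downward. Of the 33 genes, 2 were higher and 9 lower in DMSO of 24 h (8.91% and 9.63% of all genes). Smc1b was at 38.3 and 41.5 CPM at 1 h and 17.1 and 19.0 at 24 h (-1.15 ± 0.10, adjusted p = 5.12e-09). Stag3 was at 136 and 136 against 93.4 and 79.9 CPM (-0.65 ± 0.07), and Sycp1 at 32.5 and 31.3 against 17.7 and 18.5 (-0.82 ± 0.10). Tex19.1 (-0.44 ± 0.06), Syce1 (-0.44 ± 0.07) and Sycp2 (-0.60 ± 0.16) were lower too, and Meioc (0.33 ± 0.10) and Sycp3 (0.40 ± 0.13) higher. The labels give neither the density nor the medium age of these cultures. Only 5 of the 11 calls held without each library, with 7 called, 0 higher, without either replicate of DMSO 1 h. Calls lost were those of Sycp3, Hormad1, Mael, Meioc, Tdrd1 and Sycp2, and 6 were called when these 4 libraries were fitted alone.

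Some of the 24 h rises are therefore relative to a lower vehicle. Against DMSO of 1 h, in a comparison added after the data were seen, 10 genes were higher and 7 lower after 24 h of BRM014 (23.5% and 25.2% of all genes). Higher against both vehicles were 7 genes, namely Mael (1.24 ± 0.09 against DMSO of 1 h), Stk31 (0.83 ± 0.09), Taf7l (0.88 ± 0.14), Tdrd7 (0.98 ± 0.18), Ddx4 (0.55 ± 0.09), Syce2 (0.48 ± 0.07) and Dazl (0.23 ± 0.09). The other 7 of the 14 rises did not hold against that vehicle. Smc1b was called lower (-0.30 ± 0.10, adjusted p = 0.0132), and Stag3, Sycp2, Slc25a31, Sycp1, Hormad1 and Fmr1nb were not called, with values of -0.04, -0.04, -0.02, 0.08, 0.05 and 0.19. The 5 genes lower against both vehicles were Piwil4 (-1.66 ± 0.15), Tex19.1 (-1.41 ± 0.06), Syce1 (-0.94 ± 0.07), Rec8 (-0.64 ± 0.12) and Hormad2 (-0.62 ± 0.15). The share of all genes called against both vehicles was not counted.

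The inactive analog, at the same dose of 10 uM, also changed the levels of these genes at 24 h. Against DMSO of 24 h, which it shares with BRM014, 10 genes were higher and 4 lower (8.91% and 9.52% of all genes). Mael was at 43.4 and 42.3 CPM, between its vehicle (21.6 and 23.6) and BRM014 (67.8 and 68.0), and rose by 0.92 ± 0.09 (adjusted p = 3.93e-08). Smc1b (0.88 ± 0.10), Dazl (0.71 ± 0.09), Syce2 (0.51 ± 0.07), Sycp1 (0.61 ± 0.10) and Stag3 (0.44 ± 0.07) rose as well. Tex19.1 fell to 53.2 and 54.9 CPM (-0.65 ± 0.06, adjusted p = 1.49e-08), and Piwil4 to 9.92 and 9.74 CPM (-0.83 ± 0.13). Sohlh2, at 28.4 and 25.9 CPM, fell with the analog (-0.43 ± 0.08), and Rec8 by 0.48 ± 0.12 on the log2 scale.

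Of these 14 calls, 11 held without each library, and those of Rec8, Meioc and Sycp2 did not. Against both vehicles 6 genes were higher and 3 lower with the analog, with the share of all genes not counted. Against DMSO of 1 h, 17 genes were called with it, 10 higher and 7 lower (30.3% of all genes in either direction). Smc1b, Stag3, Sycp1 and Sycp2 then went to -0.27, -0.21, -0.20 and -0.03. At 1 h the analog had 1 gene called, Sycp1, at 20.9 and 24 CPM against 32.5 and 31.3 (-0.51 ± 0.10, adjusted p = 0.0280; 0.184% of all genes called in either direction). That call was lost without replicate 1 or 2 of DMSO or replicate 1 of the analog (0 genes called), and 2 genes were called without replicate 2 of the analog.

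Set directly against each other at 10 uM, a comparison of 1 compound pair at 2 times, BRM014 and the analog differed at 24 h in 13 genes, 6 higher and 7 lower with BRM014 (17.3% and 18.1% of all genes). These are 18.2% and 21.2% of the 33 genes, near the shares of all genes. Higher with BRM014 were Mael (0.66 ± 0.09, adjusted p = 6.81e-07), Sohlh2 (0.61 ± 0.08), Taf7l (0.98 ± 0.14), Stk31 (0.38 ± 0.09), Ddx4 (0.29 ± 0.09) and Sycp1 (0.28 ± 0.10). Taf7l was at 12.2 and 12.1 CPM with the analog and 23.9 and 24.3 with BRM014, with the analog near the DMSO values of 11.6 and 9.59. Lower with BRM014 were Syce1 (-0.57 ± 0.07), Piwil4 (-1.16 ± 0.16), Tex19.1 (-0.32 ± 0.06), Tex11 (-0.39 ± 0.10), Tex15 (-0.33 ± 0.09), Dazl (-0.29 ± 0.09) and Rec8 (-0.38 ± 0.13). Dazl, which rose with both compounds, was lower with BRM014 than with the analog, at 34.1 and 32.7 against 39.5 and 42.1 CPM.

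For several cohesin and synaptonemal complex genes no difference between the compounds was detectable. The 95% interval of the log2 difference was -0.23 to 0.18 for Smc1b, -0.32 to 0.31 for Sycp2, -0.02 to 0.26 for Syce2 and -0.15 to 0.33 for Hormad1, and it does not show that the compounds act alike. At 1 h 0 genes differed between the compounds (0.16% of all genes called in either direction), with 5 at an unadjusted p under 0.05 and 0 by DESeq2. Of the 13 calls at 24 h, 7 held without each library, and those of Rec8, Tex15, Dazl, Ddx4, Sycp1 and Tex11 did not.

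After washout, the genes did not all return to the vehicle level. After 1 h of BRM014, 30 min of washout left 1 gene called against BRM014 of 1 h, Tex19.1 (0.22 ± 0.06, adjusted p = 0.0221; 5.9% of all genes in either direction), and 1 h of washout left 0 (3.98%), with 4 at an unadjusted p under 0.05 and 0 by DESeq2. The Tex19.1 call was absent without replicate 1 or 2 of BRM014 1 h or replicate 2 of the washout, with 0 genes called each time, and 3 were called without replicate 1 of the washout. After 24 h of BRM014, 6 h of washout changed 5 genes upward and 9 downward against BRM014 of 24 h (25.3% and 23.4% of all genes).

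Among the genes that changed after 6 h of washout, Tex19.1 had the smallest adjusted p. It was at 43.8 and 42.9 CPM with BRM014 and at 141 and 140 after 6 h of washout, above all vehicle libraries (1.70 ± 0.06, adjusted p = 1.47e-18). Tex15 (0.71 ± 0.09), Dazl (0.59 ± 0.09), Tex101, a germ cell surface protein (1.18 ± 0.36), and Stag3 (0.18 ± 0.07) rose as well. Stk31 (-0.65 ± 0.09), Mael (-0.52 ± 0.09), Ddx4 (-0.48 ± 0.09), Meioc (-0.42 ± 0.10), Rec8 (-0.47 ± 0.13) and Tex11 (-0.35 ± 0.10) fell. Rec8, at 8.39 and 10.0 CPM, was thus lower after 6 h of washout than at 24 h of BRM014, and Piwil4 stayed at 5.58 and 5.94 CPM. Of the 14 calls, 8 held without each library, and those of Syce2, Stag3, Fmr1nb, Rec8, Asz1 and Tex101 did not.

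Against DMSO of 24 h, the 6 h washout had 14 genes higher and 5 lower (20.8% and 19% of all genes). Those with the smallest adjusted p were Tex19.1 (0.73 ± 0.06), Mael (1.07 ± 0.09), Dazl (1.02 ± 0.09), Stag3 (0.80 ± 0.07), Taf7l (1.22 ± 0.14) and Sycp1 (0.73 ± 0.10) upward, and Piwil4 (-1.60 ± 0.14), Rec8 (-1.34 ± 0.13), Syce1 (-0.54 ± 0.07), Tex11 (-0.63 ± 0.10) and Hormad2 (-0.54 ± 0.14) downward. Taf7l was at 24.5 and 25.0 CPM, as high as with BRM014. Against DMSO of 1 h, 9 were higher and 7 lower (19.4% and 18.3%), and Smc1b and Sycp1 were at -0.45 and -0.09. Against both vehicles 7 were higher and 5 lower, with the share of all genes not counted. Of the 19 calls against DMSO of 24 h, 15 held without each library, and those of Ddx4, Stk31, Sycp2 and Hormad2 did not.

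After 24 h of washout, Piwil4, Syce1 and Rec8 had left their low levels, and several genes raised by BRM014 were still above the vehicle. Against BRM014 of 24 h, 11 genes were higher and 8 lower (25.8% and 24.6% of all genes). Piwil4 was at 15.5 and 15.6 CPM (1.82 ± 0.15), Syce1 at 81.4 and 84.2 (1.10 ± 0.07) and Rec8 at 22.0 and 20.1 (0.72 ± 0.12). These values lay within or above the range of both vehicles. Tex19.1 (1.41 ± 0.06), Tdrd1, a Tudor-domain nuage protein (0.89 ± 0.12), and Hormad2 (0.48 ± 0.15) were higher too. Ddx4 (-0.69 ± 0.09), Mael (-0.58 ± 0.09), Stk31 (-0.49 ± 0.09), Taf7l (-0.61 ± 0.14), Sohlh2 (-0.34 ± 0.08) and Tdrd7 (-0.62 ± 0.18) were lower. Of these 19 calls, 10 held without each library, and 12 genes were called, 6 in each direction, without replicate 2 of BRM014. Those lost were Tex11, Hormad2, Smc1b, Tdrd7, Fmr1nb, Syce2, Tex15, Sycp2 and Tex101.

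Against DMSO of 24 h, 13 genes were higher and 0 lower after 24 h of washout (8.91% and 8.52% of all genes). They include Syce1 and Tex19.1, which BRM014 had lowered (-0.50 ± 0.07 and -0.97 ± 0.06 in the first batch). Against DMSO of 1 h, Syce1 and Tex19.1 were not called after this washout (0.16 ± 0.07 and 0.003 ± 0.06). Also among the 13 were Tdrd1 and Tex101, which were not called with BRM014. DESeq2 also called 0 lower, and at an unadjusted p under 0.05 there was 1, Sohlh2. Mael was at 42.3 and 48.5 CPM (1.01 ± 0.09), above all vehicle libraries, and Ddx4 was at 67.9 and 75.1 CPM, within the vehicle range of 64.6 to 82.2. Syce2 was at 87.6 and 85.6 CPM (0.82 ± 0.07), higher than with BRM014 itself. Smc1b (1.10 ± 0.10), Sycp1 (0.96 ± 0.10), Syce1 (0.60 ± 0.07) and Stag3 (0.61 ± 0.07) were higher as well. Against DMSO of 1 h, 7 genes were higher and 2 lower (12.9% and 13.3%), and Smc1b and Stag3 were at -0.05 each. Against both vehicles 5 were higher and 0 lower, with the share of all genes not counted. Of the 13 calls, 8 held without each library, and those of Dazl, Stk31, Hormad1, Tex101 and Taf7l did not, while 8 genes were called with the 4 libraries fitted alone. The summed level of 6 markers of 2-cell-like cells was 66.0 to 67.2 CPM in this washout and 30.8 to 36.1 after 6 h, against 7.86 to 8.95 in DMSO of 24 h, with Tcstv1 at 0. Its part in these values was not tested.

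From 6 h to 24 h of washout, 10 genes rose and 7 fell (19% and 21.3% of all genes). Syce1 (1.15 ± 0.07), Piwil4 (1.44 ± 0.15), Rec8 (1.19 ± 0.13), Syce2 (0.42 ± 0.07), Tex11 (0.61 ± 0.10) and Tdrd1 (0.63 ± 0.12) rose, and Dazl (-0.73 ± 0.09), Taf7l (-0.65 ± 0.14), Tex19.1 (-0.29 ± 0.06), Tex15 (-0.44 ± 0.09), Sohlh2 (-0.25 ± 0.08) and Stag3 (-0.19 ± 0.07) fell. Of these 17 calls, 11 held without each library, and those of Hormad2, Smc1b, Sohlh2, Sycp1, Stag3 and Tdrd6 did not.

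**Figure D3:**
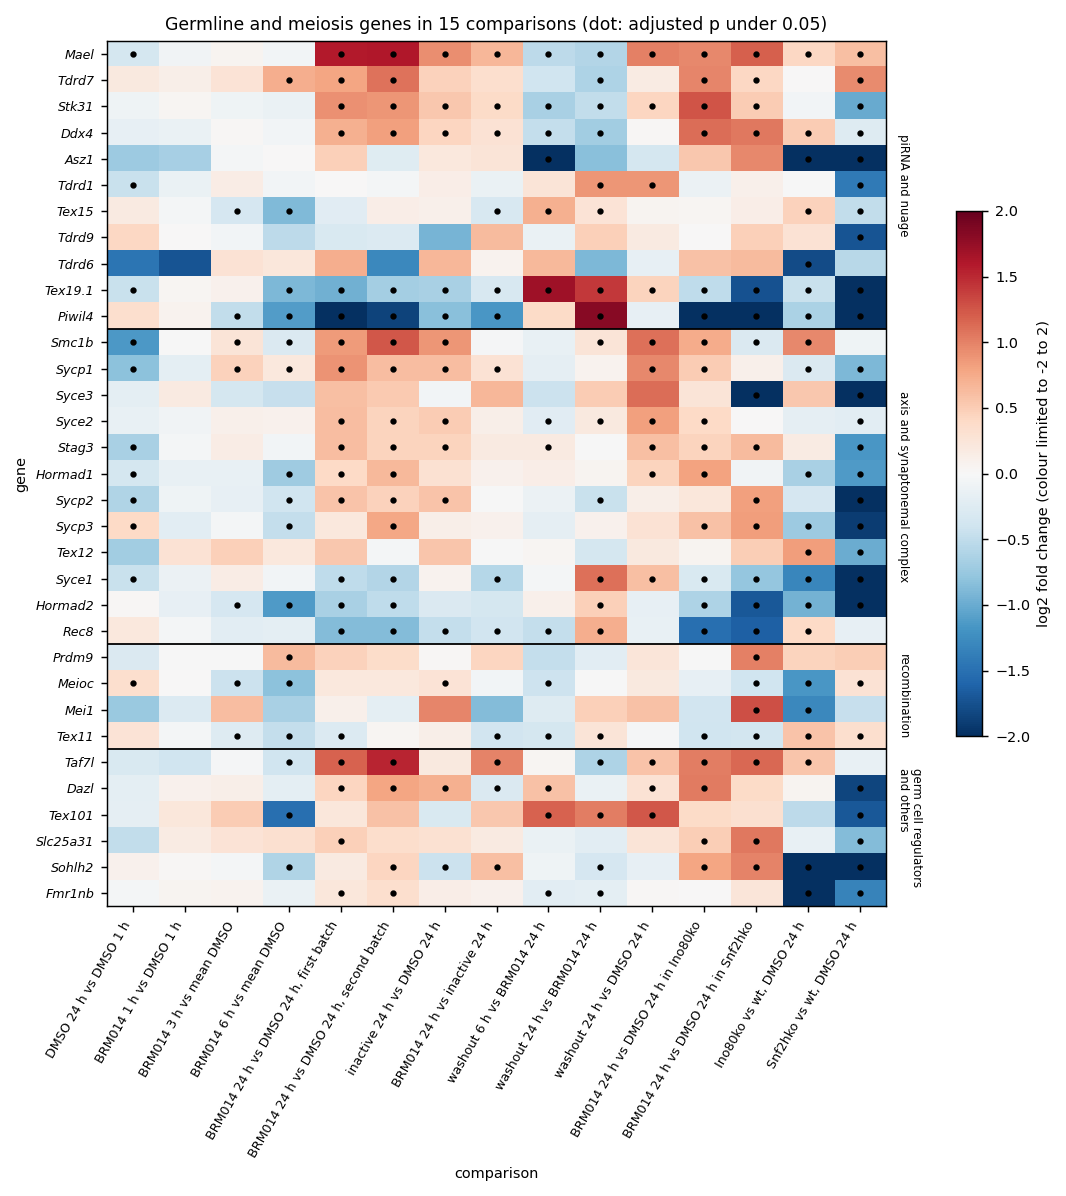
Log2 fold change of the 33 genes (rows, grouped by role) in 15 comparisons (columns), with colour limited to -2 to 2 and a dot where the adjusted p was under 0.05. Dots are absent at 1 h of BRM014, mostly on falls at 6 h and mostly on rises at 24 h, and the Snf2hko column has 23 lower and 4 higher genes.

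The line labelled Snf2hko expressed most of these genes at lower levels than wild type without any inhibitor. With DMSO, 23 of 33 genes were lower and 4 higher than in wild type (27.7% and 28.9% of all genes), with a median of -1.01 against 0.00 for all genes. Sohlh2 was at 28.0 and 27.7 CPM in wild type and 0.640 and 0.979 in the line (-5.09 ± 0.16, adjusted p = 7.15e-15). Tex19.1 was at 86.0 and 81.2 against 16.3 and 18.5 CPM (-2.27 ± 0.09), and Piwil4 at 13.9 and 13.1 against 2.33 and 1.94 (-2.66 ± 0.15). The 2 genotypes lay far apart in all 3 genes. Syce1 was at 57.3 and 54.0 against 12.8 and 11.9 CPM (-2.17 ± 0.12), Sycp2 at 4.42 and 4.98 against 0.777 and 0.696 (-2.67 ± 0.21), and Stag3 at 77.5 and 88.7 against 38.3 and 35.8 (-1.17 ± 0.09).

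Dazl followed, at 18.2 and 26.9 against 6.65 and 5.98 CPM (-1.84 ± 0.18). Asz1, a nuage protein, had 11 and 20 counts in wild type and 0 and 1 in the line, a ratio of 0.0307 with a 95% counting interval of 0.000753 to 0.184 (exact Clopper-Pearson), which covers counting error only. The 4 higher genes were Mael (20.9 and 19.3 against 30.7 and 30.5 CPM, 0.61 ± 0.08), Tdrd7 (3.68 and 3.25 against 6.63 and 6.68, 0.94 ± 0.14), Meioc (0.30 ± 0.08) and Tex11 (0.34 ± 0.10). Of these 27 calls, 21 held without each library, and those of Syce2, Tex11, Tex12, Meioc, Tex101 and Ddx4 did not. Primitive endoderm markers summed to 255 to 260 CPM in the line against 49.7 to 51.9 in wild type, with Pdgfra at 0. Primordial germ cell markers, with Kit and Tfap2c the highest over all libraries, summed to 131 to 134 CPM against 201 to 209, with Nanos3 at 0. Testis somatic markers summed to 215 to 225 against 52.9 to 60.6, with Insl3 at 0. That sum was mostly Gata4, at 17.5 to 373 CPM over all libraries, with each other testis somatic marker at most at 4.98. The part of these cell types in the differences was not tested.

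The line labelled Ino80ko showed a mixed pattern, with 13 genes lower and 8 higher than wild type (22.9% and 22.1% of all genes). Fmr1nb was at 30.9 and 28.7 CPM in wild type and 2.06 and 2.79 in the line (-3.61 ± 0.14, adjusted p = 4.94e-13). Sohlh2 was at 28.0 and 27.7 against 4.96 and 5.52 CPM (-2.41 ± 0.12), and Meioc at 39.5 and 46.3 against 18.7 and 19.4 (-1.17 ± 0.09). Sohlh2 was low in both lines, whereas Meioc was low in this one and higher in the line labelled Snf2hko. Syce1 (-1.30 ± 0.12), Hormad1 (-0.64 ± 0.11) and Tex19.1 (-0.45 ± 0.08) were lower too. Smc1b was at 11.8 and 13.1 against 22.9 and 25.6 CPM (0.96 ± 0.10), and Ddx4 (0.50 ± 0.07), Tex11 (0.57 ± 0.10), Mael (0.41 ± 0.08), Tex15 (0.47 ± 0.10) and Taf7l (0.56 ± 0.13) were higher as well. Both lines were compared with the same wild-type libraries. Of these 21 calls, 15 held without each library, and those of Sycp1, Tdrd6, Mei1, Rec8, Asz1 and Tex12 did not. Primordial germ cell markers, with Kit and Tfap2c the highest over all libraries, summed to 82.4 to 91.8 CPM in this line against 201 to 209 in wild type. Testis somatic markers, mostly Gata4, were at 20.5 to 25.0 against 52.9 to 60.6, and primitive endoderm markers at 30.1 to 30.6 against 49.7 to 51.9. The part of these cell types was not tested.

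Within each line, 24 h of BRM014 raised more of the genes than it lowered, though in the line labelled Snf2hko the shares were near those of all genes. In the line labelled Ino80ko, 14 rose and 6 fell (22% and 22.6% of all genes). Ddx4 went from 81.6 and 79.1 to 172 and 178 CPM (1.12 ± 0.07, adjusted p = 3.26e-10), the highest levels of the gene in the series, and Stk31 from 29.5 and 32.9 to 72.8 and 76.2 (1.26 ± 0.08). Mael (0.96 ± 0.08), Taf7l (1.02 ± 0.12), Smc1b (0.74 ± 0.09) and Hormad1 (0.80 ± 0.11) rose too. Piwil4 fell from 8.41 and 8.93 to 1.07 and 1.05 CPM (-3.03 ± 0.17), Rec8 from 27.6 and 24.8 to 9.41 and 8.93 (-1.51 ± 0.13), and Tex19.1 (-0.51 ± 0.08), Tex11 (-0.40 ± 0.10), Hormad2 (-0.62 ± 0.19) and Syce1 (-0.30 ± 0.12) fell too. Of these 20 calls, 16 held without each library, and those of Syce1, Slc25a31, Tex11 and Hormad2 did not.

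In the line labelled Snf2hko, 12 rose and 9 fell (28.7% and 28.2% of all genes). Mael went from 30.7 and 30.5 to 66.1 and 73.2 CPM (1.19 ± 0.08, adjusted p = 3.27e-10) and Ddx4 from 46.5 and 47.9 to 104 and 92.7 (1.06 ± 0.08). Taf7l (1.15 ± 0.13), Stag3 (0.63 ± 0.09), Slc25a31, a germ cell ADP/ATP carrier (1.05 ± 0.16), and Stk31 (0.51 ± 0.09) rose too. Tex19.1 went from 16.3 and 18.5 to 4.84 and 5.48 CPM (-1.75 ± 0.10), and Piwil4 from 2.33 and 1.94 to 0.135 and 0.0906 (-4.22 ± 0.31), which rests on 5 and 4 counts. Rec8 (-1.63 ± 0.14), Hormad2 (-1.69 ± 0.25), Syce1 (-0.77 ± 0.13) and Meioc (-0.40 ± 0.09) fell as well. Of these 21 calls, 16 held without each library, and those of Tex11, Smc1b, Mei1, Sycp2 and Syce3 did not.

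The difference in the BRM014 effect between a line and wild type was tested as an interaction. In the line labelled Ino80ko, 1 gene had a larger and 4 a lower value than wild type (4.16% and 4.87% of all genes). Piwil4 fell further than in wild type (log2 difference -1.18 ± 0.23, adjusted p = 0.00277), and Mael rose less (-0.64 ± 0.12, adjusted p = 0.00125). Both held without each library, and Smc1b (-0.50 ± 0.13), Rec8 (-0.64 ± 0.18) and Stk31 (0.37 ± 0.12) did not. Without replicate 1 or 2 of either Ino80ko group, or replicate 4 of wild-type BRM014, 2 or 3 genes were called, 0 of them higher.

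In the line labelled Snf2hko, 14 genes had a lower and 1 a higher value than wild type (16.8% and 15.8% of all genes). Smc1b, at 11.5 and 11.9 CPM with DMSO and 9.66 and 9.42 with BRM014, did not rise as in wild type (-1.54 ± 0.14, adjusted p = 1.95e-07). Piwil4 (-2.37 ± 0.39), Tex19.1 (-1.06 ± 0.13) and Rec8 (-0.76 ± 0.19) fell further than in wild type. Meioc (-0.61 ± 0.12), Hormad1 (-0.71 ± 0.16) and Syce2 (-0.44 ± 0.11) were lower as well, and the 1 higher value was that of Slc25a31 (0.69 ± 0.23). Of the 15 calls, 10 held without each library, and those of Tex11, Stk31, Tdrd7, Slc25a31 and Syce3 did not. Primitive endoderm markers summed to 366 to 375 CPM in this line with BRM014 against 255 to 260 with DMSO. Primordial germ cell markers, with Kit and Tfap2c the highest over all libraries, summed to 64.9 to 75.8 against 131 to 134. Testis somatic markers, mostly Gata4, summed to 318 to 377 against 215 to 225. The part of these cell types was not tested.

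**Figure D4:**
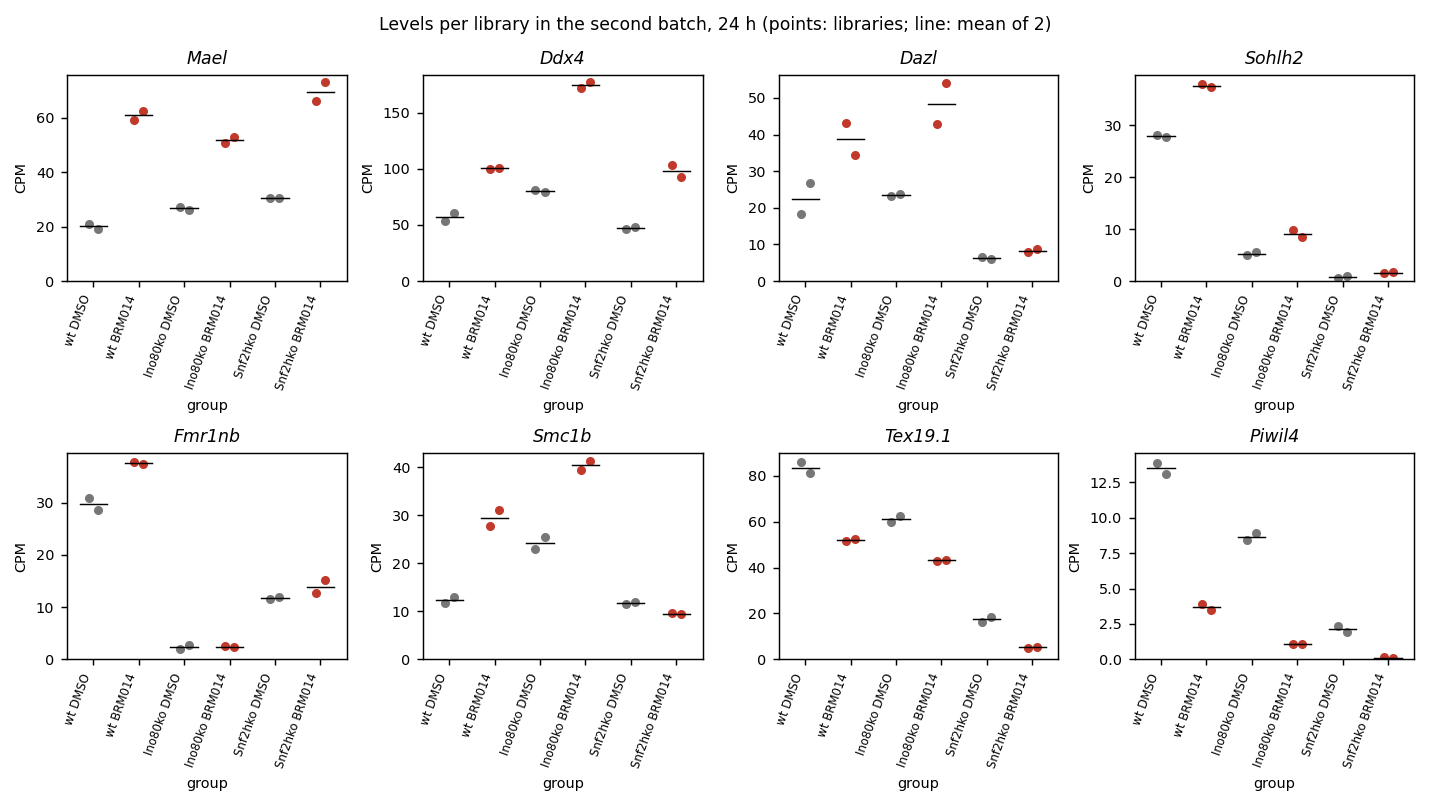
CPM of 8 genes in each library of the second batch at 24 h (points) with the mean of 2 (line), with DMSO in grey and BRM014 in red for each genotype. Mael rises in all 3 genotypes, while Sohlh2 stays at or below 9.73 CPM in both lines and Smc1b does not rise in the line labelled Snf2hko.

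Further genes of the same processes were counted beside the 33. Of 30 further germline genes, Rnf17, Mlh3, Tdrd3, Hfm1 and Nanos2 were listed at 0 in all libraries, and whether this comes from how reads were counted was not examined. In both batches together 20 of the 30 were tested. After 24 h of BRM014, 7 were higher and 3 lower, against 24.8% of all genes in each direction. Those with the smallest adjusted p were Zcwpw1, a reader of the histone marks set by PRDM9 (0.94 ± 0.06, adjusted p = 2.85e-09), Zfp541 (2.77 ± 0.30) and Stra8, the inducer of meiosis (-0.77 ± 0.12). Ddx25 (0.40 ± 0.07) and Msh4, a crossover protein (1.13 ± 0.21), came next. In the line labelled Snf2hko with DMSO, 3 of 21 were higher and 9 lower (28.9% and 27.7% of all genes), led by Tex13b (2.84 ± 0.14) and Zcwpw1 (1.06 ± 0.07) upward and Ddx25 (-1.05 ± 0.08) and Piwil1 (-4.61 ± 0.48) downward.

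Genes mostly for factors that restrain germline genes in ES cells, with Tet1 and Tet2 listed beside them, were counted too. Of these 24 genes, Max, Dnmt1, Rnf2, Ehmt1 and Tet1 were listed at 0 in all libraries. Whether these zeros come from how reads were counted was not examined, so they do not show that the genes are silent. The other 19 were tested. Of these, 5 were higher and 7 lower after 24 h in both batches together, against 24.8% of all genes in each direction. Dnmt3a, a de novo DNA methyltransferase, fell by 1.12 ± 0.07 on the log2 scale (adjusted p = 2.57e-09), and Trim28, the KAP1 corepressor, rose by 0.64 ± 0.06 (adjusted p = 3.54e-07). Wdr5 (-0.36 ± 0.06), Hdac2 (-0.32 ± 0.06) and Tfdp1 (-0.33 ± 0.06) were lower. In the line labelled Snf2hko, where most of the 33 genes were lower, 13 of the 19 were lower and 2 higher (27.7% and 28.9% of all genes). The lowest adjusted p values there were those of Cbx1 (-0.95 ± 0.06), Dnmt3a (-0.84 ± 0.07), Hdac1 (-0.68 ± 0.06) and Setdb1 (-0.45 ± 0.06), and Mga, the subunit that recognises the E-box, was lower as well (-0.54 ± 0.07).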

How the data were processed

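RNA was purified with RNeasy kits and sequenced from TruSeq stranded total RNA libraries, per the labels' protocols. The submitters' processing notes name bcl2fastq 2.17, STAR and the build GRCm38 (mm10), without their roles. The counting program, annotation and strand setting are not given in those notes or the labels. The authors deposited raw counts per gene, with no normalization, for 38 libraries, and 0 columns were left unmapped.

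From these counts, edgeR 4.0.16 (R 4.3.3) fitted quasi-likelihood models with TMM factors, after filterByExpr by group (minimum count 10, minimum total 15). One fit held the 26 libraries of the first batch (13 residual degrees of freedom, biological coefficient of variation 6.15%), one the 12 of the second (6 and 6.63%), so that each shares its estimate of the spread, and one the 8 wild-type libraries of 24 h with batch as a term (5). There were 27 comparisons, each adjusted on its own by Benjamini-Hochberg over all genes tested and called at an adjusted p under 0.05. Since 3 h and 6 h have no vehicle of their own, both vehicles were averaged for them. CPM use each batch's own TMM factors.

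The genes, their roles and all lists were chosen with earlier results of these data known. Up to 6 called genes per direction and comparison, by smallest adjusted p, are named with values, and genes called in both batches by library; others named beside them are called members chosen after their values were seen. Alternatives were size factors by RLE, DESeq2 1.42.0, no filter, the compared libraries alone, a replicate block, other vehicles and leaving out each library. The fits were tested on simulated counts. Replicate libraries were never identical (chi-square per degree of freedom 2.04 to 25.4). The symbols were matched to GENCODE M21 for position and overlap. An adjusted p given without a tool is from edgeR. Of marker lists not named in the results, 6 fibroblast markers summed to 2.90 to 18.6 CPM over all libraries (Col3a1 and Col1a2 at 0) and 5 trophoblast markers to 5.46 to 32.2 (Gata3 at 0).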

Additional observations from a re-analysis of the deposited data

Results flagged for a closer look

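Among the wild-type 24 h groups, which have 4 libraries over both batches, 3 libraries stood apart from the other libraries of their group by Dixon's criterion, of 66 groups of values examined. Chance sets apart about 1 in 20 such groups. Hormad1 was at 21.7 CPM in replicate 2 of DMSO, against 17.6 to 17.7 in the other libraries. Dazl was at 43.1 CPM in replicate 3 of BRM014, against 32.7 to 34.3. Fmr1nb was at 40.3 CPM in replicate 1 of BRM014, against 37.3 to 37.7.

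The response to 24 h of BRM014 differed between the line labelled Ino80ko and wild type in 5 genes, by edgeR's test of the interaction, as log2 difference ± standard error. The values were -1.18 ± 0.23 for Piwil4, -0.64 ± 0.12 for Mael, -0.64 ± 0.18 for Rec8, -0.50 ± 0.13 for Smc1b and 0.37 ± 0.12 for Stk31, with adjusted p from 0.00125 for Mael to 0.0495 for Stk31.

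The response differed between the line labelled Snf2hko and wild type in 15 genes. In the piRNA group these were Piwil4 (-2.37 ± 0.39), Tex19.1 (-1.06 ± 0.13), Tdrd7 (-0.66 ± 0.19), Mael (-0.41 ± 0.11) and Stk31 (-0.37 ± 0.12). In the axis and synaptonemal complex group they were Smc1b (-1.54 ± 0.14), Hormad2 (-1.19 ± 0.31), Rec8 (-0.76 ± 0.19), Hormad1 (-0.71 ± 0.16), Sycp1 (-0.53 ± 0.14) and Syce2 (-0.44 ± 0.11). Syce3, a central element protein, had -2.82 ± 0.97, which rests on 2 counts with BRM014 against 12 with DMSO in the line, a ratio of 0.179 (95% counting interval 0.0194 to 0.802). The other genes were Meioc (-0.61 ± 0.12), Tex11 (-0.41 ± 0.14) and Slc25a31 (0.69 ± 0.23). Adjusted p ranged from 1.95e-07 for Smc1b to 0.0372 for Tex11.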

How the results depend on the processing

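Of called gene values, 336 kept their call and 3 lost it with RLE, 323 and 16 with DESeq2, 320 and 19 with no filter on low counts, 290 and 27 with the compared libraries alone, and 1295 and 275 when single libraries were left out, with 0 reversed in each. Replicate numbers did not pair the libraries: deviations of same-numbered libraries correlated from -0.28 to 0.34 over 78 pairs of groups in the first batch. With a replicate block 289 called values held and 2 did not, and no count of called genes moved by over 1.5 times; no paired fit was possible where wild type and a line, or the batches, share no numbers. Counts that moved were 2 (no filter) and 2 (DESeq2) against 1 for the analog at 1 h, 2 (no filter) and 0 (compared libraries alone) against 1 for 30 min of washout, and, with the compared libraries alone, 6 against 11 for DMSO of 24 h against 1 h and 8 against 13 for 24 h of washout against DMSO. At 3 h the count of 7 became 2 against DMSO of 1 h and 12 against DMSO of 24 h. Leaving out single libraries gave 4 to 7 at 3 h, 0 to 2 for the analog at 1 h, 7 to 11 for DMSO of 24 h against 1 h, 0 to 3 for 30 min of washout, 12 to 15 (of 19) for 24 h of washout against BRM014, 2 to 5 for the Ino80ko interaction and 0 to 1 for the batch interaction. Among these alternatives, directions reversed with another vehicle only, an alternative chosen after seeing the data for the 24 h groups, and the cause was not tested. Against DMSO of 1 h these were, after 24 h of BRM014, Smc1b (-0.30), Stag3 (-0.037), Sycp2 (-0.036) and Slc25a31 (-0.016), with the analog Smc1b (-0.27), Sycp1 (-0.20), Stag3 (-0.21) and Sycp2 (-0.032), after 6 h of washout Smc1b (-0.45), Sycp1 (-0.091) and Sycp2 (-0.16), after 24 h of washout Smc1b (-0.047) and Stag3 (-0.046), at 3 h Smc1b (-0.32) and at 6 h Sycp1 (-0.19). Against DMSO of 24 h, Smc1b at 6 h was 0.28. Depth limits Asz1, Tdrd6, Mei1, Tdrd9, Syce3 and Tex101, which had few counts per library, and intervals from counts cover counting error only.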
